A study of Mus musculus with 4 samples.

Results

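The genes described here encode proteins that make ribosomes: RNA polymerase I subunits and factors, the small nucleolar ribonucleoproteins (snoRNPs) that modify ribosomal RNA, nucleolar chaperones, and the factors that process the precursor RNA and assemble the small (40S) and the large (60S) subunit. They were taken as a list of 50 genes by function, and 48 of them were measured, among 18194 genes on the array. Each gene took its value from a probe set that the array's annotation gives to that gene alone, and where there were several, from the one with the highest mean over the 4 arrays. Npm3 had no such probe set, and Mrto4 had only one that it shares with its pseudogenes Mrto4-ps1 and Mrto4-ps2.

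Liver RNA was hybridised to 4 Affymetrix mouse arrays, 1 per genotype, and each array received equal amounts of RNA from 3 non-fasted mice aged 5 weeks, labelled as males. ΔS6:c-Myc mice (labelled DS6 Myc) carried an albumin-driven c-Myc transgene, which is active in hepatocytes after birth, together with deletion of the ribosomal protein gene Rps6. Alb-c-Myc mice (labelled Myc) carried the transgene with Rps6 intact. ΔS6 mice (labelled DS6) were Rps6 lox/lox with Alb-Cre, which deletes in hepatoblasts, the fetal precursors of hepatocytes and bile duct cells. The study describes this deletion as incomplete and patchy, so that ΔS6 livers are a mixture of deleted and undeleted cells. WT mice were Rps6 lox/lox without Cre, and the strain background was mixed. Values are log2 expression values from robust multi-array averaging (RMA), so that a difference of 1 between 2 arrays is a ratio of 2-fold, and a log2 ratio of one liver versus another is the first value minus the second. With 1 array per genotype there is no replicate, no ratio below has an error from animals, and no test between genotypes was made. The only repeat measurement is that of different probe sets of the same gene. The SD of their log2 ratios, taken over 3379 genes with several bright probe sets, is called the probe-set spread below, and it is technical.

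Ribosome production starts in the nucleolus, where RNA polymerase I transcribes the ribosomal RNA genes. snoRNPs then guide chemical modification of the transcript, a large complex called the small subunit processome folds and cuts it, and separate sets of factors mature the 2 subunits before they leave the nucleus. The transcription factor Myc is well known to increase transcription of many of these genes, and demand for ribosomes is high in growing and regenerating liver.

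The transgene and the deletion were examined first. The Myc probe set read 11.37 in ΔS6:c-Myc, 11.68 in Alb-c-Myc, 8.89 in ΔS6 and 8.33 in WT liver, so both transgenic livers stood far above the others. The 9 probe sets that Rps6 shares with its pseudogene Rps6-ps4 had a median log2 ratio of −1.76 in ΔS6:c-Myc versus Alb-c-Myc and −0.29 in ΔS6 versus WT, and all 9 were lower in both. For Rps6 without the pseudogene there were 2 probe sets, and they went opposite ways. One of them read 5.64 in ΔS6:c-Myc, 8.13 in Alb-c-Myc, 6.30 in ΔS6 and 7.10 in WT liver, and the other 8.25 in ΔS6:c-Myc, 5.65 in Alb-c-Myc, 7.48 in ΔS6 and 6.01 in WT liver. The 7 hepatocyte markers examined were within 2-fold in every comparison, with Tdo2 the lowest in ΔS6 versus WT, at −0.68. They do not stand for all hepatocyte genes, since the paper reports other mature liver genes, such as cytochrome P450s, as lower in ΔS6 livers. The WT array stood apart from the other 3. An Xist probe set, which marks female cells, read 6.33 in ΔS6:c-Myc, 6.29 in Alb-c-Myc and 5.88 in ΔS6 liver, against 11.84 in WT liver, which goes against the male label, and the pancreatic enzyme gene Cpb1 read 5.33, 6.10 and 4.66 in the same 3 livers, against 9.61 in WT liver. Lower by 2-fold or more were 5 of 5 measured pancreatic enzyme genes for ΔS6:c-Myc versus WT, 4 for Alb-c-Myc and 5 for ΔS6. Every ratio to WT rests on this array and its part in the results was not tested, so the ratios of ΔS6:c-Myc versus Alb-c-Myc and versus ΔS6, which do not use it, are given beside them. RNA from whole liver cannot tell fewer cells of a type apart from less RNA per cell.

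As a group, the ribosome biogenesis genes were higher in all 3 altered livers than in WT liver. Their median in ΔS6:c-Myc versus WT was 0.87 on the log2 scale, or 1.83-fold, with all 48 above 0. In Alb-c-Myc versus WT the median was 0.56 (1.47-fold), again with all 48 above 0, and in ΔS6 versus WT it was 0.49 (1.41-fold), with 46 of 48 above 0. Over all 18194 genes the medians were −0.01 in ΔS6:c-Myc versus WT, 0.00 in Alb-c-Myc versus WT and −0.05 in ΔS6 versus WT. The ratio was larger than the probe-set spread in 46 of 48 genes for ΔS6:c-Myc versus WT (spread 0.29), in 47 for Alb-c-Myc versus WT (0.14) and in 38 for ΔS6 versus WT (0.27). Of all 18194 genes, 3619, 3653 and 4580 had a ratio above the spread, in the same order of comparisons. The shares of all genes above 0 were 48.2%, 50.6% and 43.9%.

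**Figure D1:**
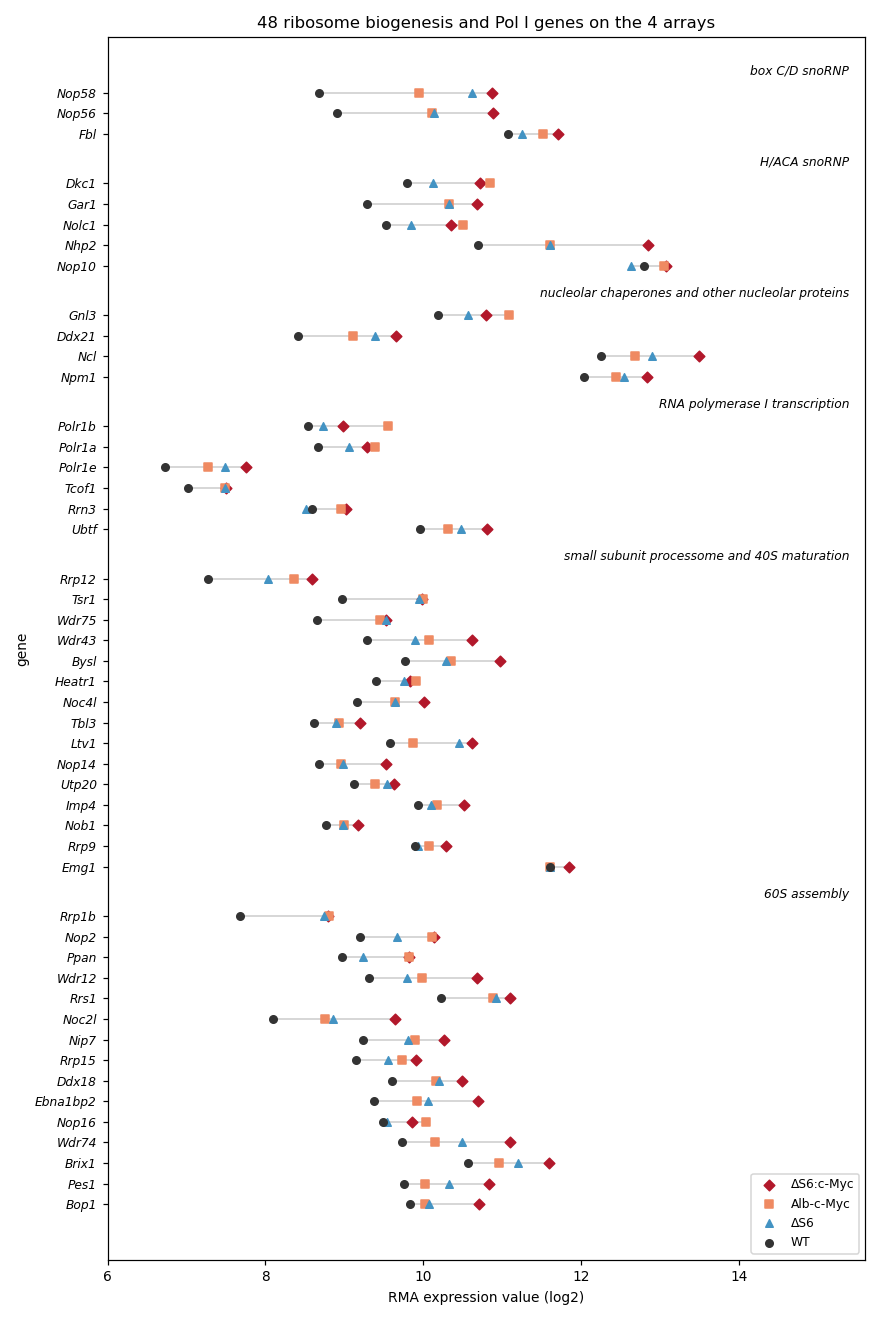
RMA expression value (log2, horizontal axis) of the 48 measured genes on the 4 arrays, 1 point per array, grouped by what the gene product does. The ΔS6:c-Myc diamond is the rightmost point for 38 genes, and the WT circle is the leftmost for 46; levels of different genes come from different probe sets and cannot be set against each other.

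At least 2-fold higher in ΔS6:c-Myc versus WT were 20 of the 48 genes (41.7%), where 3.00% of all genes were. In Alb-c-Myc versus WT the count was 8 of 48 (16.7%), against 0.418% of all genes, and in ΔS6 versus WT it was 4 of 48 (8.33%), against 7.24% of all genes. The 8 were Nop58, Nop56, Rrp1b, Rrp12, Dkc1, Gar1, Tsr1 and Polr1b, and the 4 in ΔS6 versus WT were Nop58, Nop56, Rrp1b and Gar1. The share in ΔS6 versus WT was near that of the whole array. At 1.5-fold the shares were 37 of 48 in ΔS6:c-Myc versus WT, 22 in Alb-c-Myc versus WT and 19 in ΔS6 versus WT, where the whole array had 8.97%, 1.59% and 13.8%. None of the 48 was 1.5-fold or 2-fold lower in any of the 3. The background on the lower side was 1.80% at 2-fold and 5.20% at 1.5-fold in ΔS6:c-Myc versus WT, 0.335% and 0.951% in Alb-c-Myc versus WT, and 2.54% and 7.06% in ΔS6 versus WT. These genes are brighter than most, and among the 9042 genes that average at least 8 on the log2 scale the shares at 2-fold higher were 4.56%, 0.608% and 7.84% in the same order of comparisons.

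The comparisons without the WT array gave smaller ratios of the same sign. In ΔS6:c-Myc versus Alb-c-Myc the median was 0.29, with 39 of 48 genes above 0 and 25 above the probe-set spread of 0.24. In ΔS6:c-Myc versus ΔS6 the median was 0.37, with 47 of 48 above 0 and 39 above the spread of 0.20. The medians over all genes were −0.01 and 0.05. Nhp2 was the only one of the 48 to reach 2-fold in either comparison, a share of 2.08%, where 1.99% of all genes were 2-fold higher in ΔS6:c-Myc versus Alb-c-Myc and 0.769% for ΔS6:c-Myc versus ΔS6. At 1.5-fold, 13 of 48 were higher in ΔS6:c-Myc versus Alb-c-Myc (6.82% of all genes) and 11 in ΔS6:c-Myc versus ΔS6 (4.00% of all genes). Again no gene of the 48 was lower by 1.5-fold or 2-fold, where the lower shares of the whole array were 4.28% at 1.5-fold and 1.36% at 2-fold in ΔS6:c-Myc versus Alb-c-Myc, and 9.35% at 1.5-fold and 4.29% at 2-fold in ΔS6:c-Myc versus ΔS6.

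**Figure D2:**
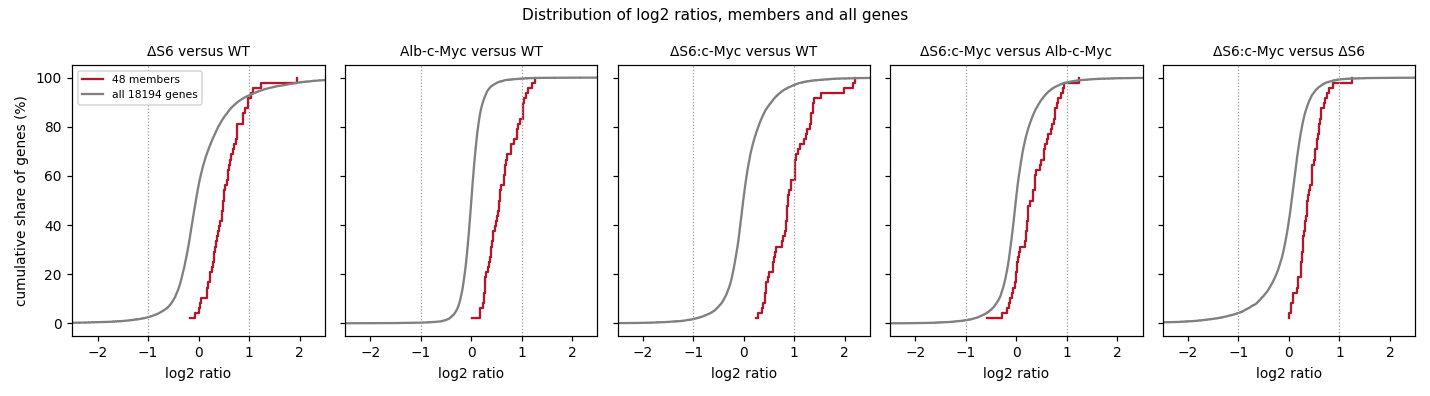
Cumulative share of genes (%, vertical axis) at or below a given log2 ratio (horizontal axis, drawn from −2.5 to 2.5) in the 5 comparisons, for the 48 ribosome biogenesis genes and for all 18194 genes; dotted lines mark 2-fold. The curve of the 48 genes lies to the right of that of all genes over most of its length in every panel; in ΔS6 versus WT and ΔS6:c-Myc versus Alb-c-Myc the curves meet near the 2-fold line.

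Values of other cell types moved with the ΔS6 liver and are given here for all of these results. The summed level of the 6 measured bile duct and progenitor markers was 10.89 on the log2 scale in ΔS6:c-Myc, 9.48 in Alb-c-Myc, 14.34 in ΔS6 and 9.57 in WT liver, and 6 of 6 were at least 2-fold higher in ΔS6 versus WT. Macrophage markers summed to 13.24 in ΔS6:c-Myc, 12.51 in Alb-c-Myc, 14.94 in ΔS6 and 12.73 in WT liver (6 of 7 at least 2-fold higher in ΔS6 versus WT), and neutrophil markers to 9.44 in ΔS6:c-Myc, 9.28 in Alb-c-Myc, 14.52 in ΔS6 and 9.46 in WT liver (5 of 5). In Alb-c-Myc versus WT none of these 3 lists had a gene 2-fold higher. Stellate cell markers summed to 12.46 in ΔS6:c-Myc, 12.31 in Alb-c-Myc, 13.75 in ΔS6 and 11.94 in WT liver, with 2 of 4 at least 2-fold higher in ΔS6 versus WT. Of 5 measured B and plasma cell genes, 2 were at least 2-fold higher in ΔS6 versus WT, and the median was 0.13. Igha read 8.74 in ΔS6:c-Myc, 8.76 in Alb-c-Myc, 12.57 in ΔS6 and 8.75 in WT liver. Jchain was 3.49 higher in ΔS6 versus WT, while Cd79a, Cd79b and Ms4a1 were at 0.13, −0.08 and −0.28. Of 5 measured endothelial markers, the sinusoidal gene Lyve1 differed most in the ΔS6:c-Myc liver. It read 7.72 there, against 8.91 in Alb-c-Myc, 9.44 in ΔS6 and 9.09 in WT liver. The rest did not share its ratio of −1.20 to Alb-c-Myc, with Stab2 at −0.25, Kdr at −0.10, Clec4g at −0.06 and Pecam1 at 0.48. Medians of the 5 for ΔS6:c-Myc were −0.10 versus Alb-c-Myc, −0.51 versus ΔS6 and −0.58 versus WT. Proliferation genes were at least 2-fold higher in 6 of 8 cases in ΔS6:c-Myc versus WT, in 5 of 8 in Alb-c-Myc versus WT and in 6 of 8 in ΔS6 versus WT, with medians of 1.41, 1.22 and 2.35. Their median was 0.01 in ΔS6:c-Myc versus Alb-c-Myc and −0.89 for ΔS6:c-Myc versus ΔS6, and against the ΔS6 liver they thus lay on the opposite side of 0 from the ribosome biogenesis genes. The part of other cell types and of proliferation in the ratios below was not tested.

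Box C/D snoRNPs guide methylation of ribosomal RNA, and the 3 of their core proteins among the 48 had the highest group median in each ratio to WT. Nop58, one of the 2 paired core proteins, read 10.87 in ΔS6:c-Myc, 9.95 in Alb-c-Myc, 10.62 in ΔS6 and 8.68 in WT liver. It was the top gene of the 48 in all 3 ratios to WT, at 2.19 for ΔS6:c-Myc, 1.27 for Alb-c-Myc and 1.94 for ΔS6. The ΔS6 liver lay close to the ΔS6:c-Myc liver, with a ratio of only 0.25 between them. Nop56, its partner, read 10.89 in ΔS6:c-Myc, 10.11 in Alb-c-Myc, 10.14 in ΔS6 and 8.90 in WT liver. Its 2 single alterations were thus alike, at 1.21 for Alb-c-Myc and 1.24 for ΔS6 versus WT, and the combined one reached 1.98; a second Nop56 probe set gave 1.77, 1.28 and 1.19 for ΔS6:c-Myc, Alb-c-Myc and ΔS6 versus WT. Fbl, fibrillarin, the methyltransferase of the same particle, moved less, at 11.70 in ΔS6:c-Myc, 11.52 in Alb-c-Myc, 11.25 in ΔS6 and 11.07 in WT liver.

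The upstream sequence of Nop58 is shown because this gene led every comparison with WT. The motif CACGTG, the canonical E-box that Myc-Max dimers bind, was searched in the RefSeq promoter windows of build GRCm38.p6, which hold 250 bases before and 50 after each annotated start. It reads the same on both strands. Windows matched 43 of the 50 genes, and Fbl, Npm1, Tcof1, Tbl3, Rrp12, Bop1 and Rrs1 had no entry. The motif was found for 8 of the 43 genes (18.6%), 2187 of all 27025 genes with a window (8.09%) and 1479 of the 14453 of these that are on the array (10.2%). Nop58, Nop56, Gar1 and Dkc1, which are among the highest in Alb-c-Myc versus WT, had no such letters in this window. Nop2, an RNA cytosine methyltransferase of the large subunit, had 1 match whose first base lies 60 bases before the start, and Rrn3, the factor that joins RNA polymerase I to its promoter, had 2, at 215 and 48 bases before it. The 250 bases before the start are printed for these 3, in lower case with the motif in capitals.
Nop58 (chr1:59684756-59685005, plus strand): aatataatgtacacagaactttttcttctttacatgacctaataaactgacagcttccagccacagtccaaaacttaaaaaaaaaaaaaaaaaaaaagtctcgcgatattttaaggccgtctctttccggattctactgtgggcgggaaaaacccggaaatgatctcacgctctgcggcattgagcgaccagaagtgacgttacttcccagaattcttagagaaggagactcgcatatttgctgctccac
Nop2 (chr6:125131633-125131882, plus strand): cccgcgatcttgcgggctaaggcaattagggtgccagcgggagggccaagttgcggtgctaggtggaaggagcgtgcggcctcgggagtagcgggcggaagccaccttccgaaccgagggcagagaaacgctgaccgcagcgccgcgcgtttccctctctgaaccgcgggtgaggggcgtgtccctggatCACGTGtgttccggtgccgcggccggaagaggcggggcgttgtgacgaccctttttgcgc
Rrn3 (chr16:13780449-13780698, plus strand): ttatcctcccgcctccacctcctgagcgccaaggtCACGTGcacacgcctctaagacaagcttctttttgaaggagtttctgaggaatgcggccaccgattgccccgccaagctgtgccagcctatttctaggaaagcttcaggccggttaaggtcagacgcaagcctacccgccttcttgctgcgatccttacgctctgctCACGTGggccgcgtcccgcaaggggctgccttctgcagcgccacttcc

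The other 6 genes with the motif are shown by the 30 bases around it, since the position differs between them. It began 121 bases before the start in Imp4, and 3 bases after it in Pes1, 18 in Wdr43, 25 in Tsr1, 29 in Ltv1 and 38 in Utp20.
Imp4 (chr1:34439696-34439725, plus strand): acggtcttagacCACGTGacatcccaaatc
Pes1 (chr11:3963965-3963994, plus strand): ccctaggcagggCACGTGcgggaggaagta
Wdr43 (chr17:71616220-71616249, plus strand): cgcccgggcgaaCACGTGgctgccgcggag
Tsr1 (chr11:74898092-74898121, plus strand): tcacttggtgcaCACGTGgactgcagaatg
Ltv1 (chr10:13193092-13193121, minus strand): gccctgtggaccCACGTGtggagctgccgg
Utp20 (chr10:88826765-88826794, minus strand): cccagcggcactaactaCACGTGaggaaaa
The 8 genes with the motif had a median of 0.33 in Alb-c-Myc versus WT (0.25 to 1.03), and the 33 measured genes without it in their window had 0.59 (0.01 to 1.27). In ΔS6:c-Myc versus ΔS6 the medians were 0.44 with and 0.36 without the motif. The genes with the motif thus had the lower median on one background and the higher on the other, and the ranges of the 2 sets overlapped. A match in this window is a description of letters and not a bound site.

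H/ACA snoRNPs guide the conversion of uridine to pseudouridine, and their proteins differed in profile. Nhp2, one of the core proteins, read 12.85 in ΔS6:c-Myc, 11.61 in Alb-c-Myc, 11.61 in ΔS6 and 10.69 in WT liver. Both single alterations were 0.92 above WT and the combination a further 1.24, or 2.36-fold, above either. Its second probe set behaved alike, at 11.65 in ΔS6:c-Myc, 10.36 in Alb-c-Myc, 10.34 in ΔS6 and 9.63 in WT liver. Dkc1, dyskerin, the pseudouridine synthase itself, read 10.73 in ΔS6:c-Myc, 10.85 in Alb-c-Myc, 10.12 in ΔS6 and 9.80 in WT liver, so that it was high in the livers with the transgene. The log2 ratios in ΔS6:c-Myc versus Alb-c-Myc were −0.13, −0.11 and −0.31 for the 3 Dkc1 probe sets, of which the first 2 are within the probe-set spread. Nolc1, which binds the particles in the nucleolus and Cajal bodies, had the same order, at 10.35 in ΔS6:c-Myc, 10.50 in Alb-c-Myc, 9.84 in ΔS6 and 9.53 in WT liver. Another bright Nolc1 probe set kept this order, but a further bright one, with a mean of 8.61, did not. It read 8.56 in ΔS6:c-Myc, 9.20 in Alb-c-Myc, 8.15 in ΔS6 and 8.55 in WT liver. Its ratios to WT were thus 0.01 for ΔS6:c-Myc and −0.39 for ΔS6. Gar1, a core protein, read 10.68 in ΔS6:c-Myc, 10.32 in both Alb-c-Myc and ΔS6, and 9.29 in WT liver. Nop10, the smallest core protein, read 13.08 in ΔS6:c-Myc, 13.05 in Alb-c-Myc, 12.63 in ΔS6 and 12.80 in WT liver. It was the lowest of the 48 genes in ΔS6 versus WT, at −0.17, and its ratio in ΔS6:c-Myc versus ΔS6 was 0.45, with 0.38 on a second probe set.

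Among the nucleolar chaperones, Ncl and Npm1 encode the abundant proteins nucleolin and nucleophosmin. Ncl read 13.50 in ΔS6:c-Myc, 12.69 in Alb-c-Myc, 12.90 in ΔS6 and 12.25 in WT liver, with a ratio of 0.81 in ΔS6:c-Myc versus Alb-c-Myc. A second bright Ncl probe set gave 0.91 for that ratio, and 3 dimmer ones lay between −0.12 and 0.52. Npm1 read 12.83 in ΔS6:c-Myc, 12.45 in Alb-c-Myc, 12.55 in ΔS6 and 12.04 in WT liver. Ddx21, an RNA helicase that acts in ribosomal RNA transcription and processing, read 9.66 in ΔS6:c-Myc, 9.11 in Alb-c-Myc, 9.39 in ΔS6 and 8.41 in WT liver. Its second bright probe set did not separate the 3 altered livers, at 9.03 in ΔS6:c-Myc, 9.08 in Alb-c-Myc and 9.02 in ΔS6, against 8.41 in WT liver. Gnl3, nucleostemin, a GTP-binding protein of dividing and stem cells, read 10.80 in ΔS6:c-Myc, 11.09 in Alb-c-Myc, 10.57 in ΔS6 and 10.19 in WT liver. Its ratio of −0.29 in ΔS6:c-Myc versus Alb-c-Myc was the second lowest of the 48 genes.

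The 6 genes of RNA polymerase I transcription were the group with the smallest ratios in ΔS6:c-Myc versus WT. Their median was 0.55 and 1 of 6 was at 2-fold, where 3.00% of all genes were. In ΔS6:c-Myc versus Alb-c-Myc their median was 0.03. Polr1b, which encodes the second largest subunit of the enzyme, read 8.98 in ΔS6:c-Myc, 9.56 in Alb-c-Myc, 8.73 in ΔS6 and 8.54 in WT liver. The Alb-c-Myc liver thus stood alone, 1.02 above WT, while the ΔS6:c-Myc liver lay −0.57 from it, the lowest ratio of the 48 genes in that comparison. Polr1a, the largest subunit, read 9.29 in ΔS6:c-Myc, 9.39 in Alb-c-Myc, 9.06 in ΔS6 and 8.67 in WT liver. Polr1e, a subunit that helps the enzyme start and elongate, had the highest ratio of the group in ΔS6:c-Myc versus WT, at 7.76 in ΔS6:c-Myc, 7.28 in Alb-c-Myc, 7.48 in ΔS6 and 6.73 in WT liver. That probe set is of the _x_at kind, which can bind several transcripts, and the other Polr1e probe set read 7.95 in ΔS6:c-Myc, 7.01 in Alb-c-Myc, 7.18 in ΔS6 and 6.08 in WT liver, so the ratio was 1.02 on the first and 1.87 on the other. Of the factors, Ubtf, which shapes the chromatin of active ribosomal RNA genes, read 10.81 in ΔS6:c-Myc, 10.32 in Alb-c-Myc, 10.47 in ΔS6 and 9.96 in WT liver. Rrn3 was slightly lower in ΔS6 than in WT liver, at 9.02 in ΔS6:c-Myc, 8.96 in Alb-c-Myc, 8.51 in ΔS6 and 8.59 in WT liver, so its levels split the livers with the transgene from those without. Tcof1, treacle, a nucleolar scaffold for the polymerase, read 7.50 in ΔS6:c-Myc, 7.49 in both Alb-c-Myc and ΔS6, and 7.02 in WT liver. Its other probe sets, which are dimmer, did not show the rise in Alb-c-Myc, with ratios to WT of 0.06 and −0.07. On these, the ratios to WT were 0.46 and 0.34 for ΔS6:c-Myc and 0.57 and 0.25 for ΔS6.

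The 15 genes of the small subunit processome and 40S maturation had a median of 0.85 in ΔS6:c-Myc versus WT, 0.33 in Alb-c-Myc versus WT and 0.42 in ΔS6 versus WT, with 5, 2 and 0 of 15 at 2-fold. Of all genes, 3.00%, 0.418% and 7.24% were 2-fold higher in the same order of comparisons. Wdr43, one of the first processome proteins to join the transcript, was the highest of them in ΔS6:c-Myc versus WT, at 10.62 in ΔS6:c-Myc, 10.07 in Alb-c-Myc, 9.90 in ΔS6 and 9.29 in WT liver. Rrp12, known from yeast as an export and processing factor, followed at 8.59 in ΔS6:c-Myc, 8.36 in Alb-c-Myc, 8.03 in ΔS6 and 7.28 in WT liver, and its ratio of 1.08 in Alb-c-Myc versus WT was the highest of the 15. The 4 livers had the same order for both genes on these probe sets. A second bright Wdr43 probe set had ΔS6, at 9.50, above Alb-c-Myc, at 9.41. Bysl, bystin, which is needed for late 40S steps, was 1.5-fold higher in ΔS6:c-Myc than in either single alteration, at 10.97 in ΔS6:c-Myc, 10.36 in Alb-c-Myc, 10.28 in ΔS6 and 9.77 in WT liver. Its second probe set, also bright with a mean of 8.41, did not show this, with ratios of 0.07 to Alb-c-Myc and 0.21 to ΔS6. Ltv1, a late 40S factor, was high mainly in the livers with Rps6 deleted, at 10.61 in ΔS6:c-Myc, 9.87 in Alb-c-Myc, 10.45 in ΔS6 and 9.57 in WT liver.

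Of the 15 genes, Tsr1 and Wdr75 were at least 1.5-fold above WT and lay level in the 3 altered livers, within the probe-set spread. Tsr1, a GTPase-like 40S maturation factor, read 9.99 in ΔS6:c-Myc, 10.00 in Alb-c-Myc, 9.95 in ΔS6 and 8.97 in WT liver. A second Tsr1 probe set showed the same plateau, at 9.06 in ΔS6:c-Myc, 9.15 in Alb-c-Myc, 9.02 in ΔS6 and 8.02 in WT liver. Wdr75, an early processome protein, read 9.52 in ΔS6:c-Myc, 9.45 in Alb-c-Myc, 9.53 in ΔS6 and 8.66 in WT liver, and was the only gene of the 48 whose highest array was ΔS6. Its second probe set, dim with a mean of 6.16, did not show the plateau, with ratios to WT of 0.23 in ΔS6:c-Myc, 0.54 in Alb-c-Myc and −0.23 in ΔS6. Emg1, Rrp9, Nob1 and Imp4 were the lowest of the group in Alb-c-Myc versus WT. Emg1, an RNA methyltransferase, read 11.84 in ΔS6:c-Myc, 11.61 in Alb-c-Myc and 11.60 in both ΔS6 and WT liver. Rrp9, a protein of the U3 snoRNP, read 10.28 in ΔS6:c-Myc, 10.07 in Alb-c-Myc, 9.93 in ΔS6 and 9.90 in WT liver. The spread of these 2 genes over the 4 livers was the narrowest of the group. Nob1, the nuclease that makes the final cut of the small subunit RNA, read 9.18 in ΔS6:c-Myc, 8.99 in both Alb-c-Myc and ΔS6, and 8.76 in WT liver. Imp4, a U3 snoRNP protein, read 10.51 in ΔS6:c-Myc, 10.18 in Alb-c-Myc, 10.10 in ΔS6 and 9.93 in WT liver. Nop14, a processome protein known from yeast, read 9.53 in ΔS6:c-Myc, 8.95 in Alb-c-Myc, 8.98 in ΔS6 and 8.68 in WT liver, with a double difference of 0.27. The remaining processome proteins Heatr1, Utp20, Noc4l and Tbl3 had ratios from 0.44 to 0.86 in ΔS6:c-Myc versus WT.

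The 15 measured genes of 60S assembly had the most members past 2-fold in ΔS6:c-Myc versus WT, 8 of 15, with a median of 1.02; 14 of 15 were at least 1.5-fold higher. Of all genes, 3.00% and 8.97% were higher by these folds. The medians of the 15 were 0.58 for each single alteration versus WT, with 1 of 15 at 2-fold in each. The shares of all genes at 2-fold were 0.418% in Alb-c-Myc versus WT and 7.24% in ΔS6 versus WT. Noc2l, whose yeast counterpart escorts early 60S particles, had the highest ratio to WT of the 15, at 9.64 in ΔS6:c-Myc, 8.76 in Alb-c-Myc, 8.85 in ΔS6 and 8.10 in WT liver. Its second probe set showed less, at 8.59 in ΔS6:c-Myc, 8.64 in Alb-c-Myc, 8.33 in ΔS6 and 8.35 in WT liver, so the 2 probe sets of Noc2l disagree. Wdr74, which takes part in early 60S remodelling, read 11.10 in ΔS6:c-Myc, 10.14 in Alb-c-Myc, 10.49 in ΔS6 and 9.72 in WT liver, and its ratio of 0.95 in ΔS6:c-Myc versus Alb-c-Myc was second to that of Nhp2.

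Pes1, Bop1 and Wdr12 encode the 3 partners of the PeBoW complex, which is needed for processing of the large subunit RNA. Pes1 read 10.84 in ΔS6:c-Myc, 10.02 in Alb-c-Myc, 10.33 in ΔS6 and 9.75 in WT liver. Bop1 read 10.71 in ΔS6:c-Myc, 10.02 in Alb-c-Myc, 10.07 in ΔS6 and 9.84 in WT liver. Wdr12 read 10.68 in ΔS6:c-Myc, 9.98 in Alb-c-Myc, 9.80 in ΔS6 and 9.32 in WT liver. In all 3 partners the ΔS6:c-Myc liver stood above either single alteration by more than the probe-set spread, with ratios of 0.82, 0.69 and 0.70 to Alb-c-Myc and of 0.51, 0.64 and 0.88 to ΔS6. Bop1 differed little in either single alteration, at 0.18 for Alb-c-Myc and 0.23 for ΔS6 versus WT, and it had the highest excess over additivity of the 48 genes. The dimmer second probe sets did not show the ratios to Alb-c-Myc in any of the 3, at −0.35 for Pes1, 0.07 for Bop1 and 0.09 for Wdr12. Their ratios to ΔS6 were −0.40 for Pes1, 0.35 for Bop1 and 0.04 for Wdr12. Of these, only that of Bop1 was above the probe-set spread of 0.20. A further, still dimmer Wdr12 probe set gave −0.20 to Alb-c-Myc and 0.07 to ΔS6. The double difference of Bop1 was 0.45, and 0.17 on its second probe set.

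Rrp1b and Nop16 had other profiles. Rrp1b, which is found at the nucleolus and binds a protein phosphatase, read 8.79 in ΔS6:c-Myc, 8.81 in Alb-c-Myc, 8.75 in ΔS6 and 7.68 in WT liver, a plateau like that of Tsr1. Its other 2 probe sets did not show this plateau, with ratios in ΔS6:c-Myc versus WT of 0.52 and 0.71, in Alb-c-Myc versus WT of 0.26 and 0.55, and in ΔS6 versus WT of 0.23 and 0.25. Nop16, a 60S factor known from yeast, read 9.85 in ΔS6:c-Myc, 10.03 in Alb-c-Myc, 9.54 in ΔS6 and 9.49 in WT liver. The other 8 were Nop2, Rrp15, Rrs1, Nip7, Ddx18, Ebna1bp2, Brix1 and Ppan, with ratios from 0.75 to 1.32 in ΔS6:c-Myc versus WT. Ppan, known from yeast as an early 60S factor, had equal levels of 9.82 in ΔS6:c-Myc and Alb-c-Myc liver, against 9.24 in ΔS6 and 8.97 in WT liver. Mrto4, whose yeast counterpart holds the place of the ribosomal stalk, could be read only with its pseudogenes, at 11.56 in ΔS6:c-Myc, 10.87 in Alb-c-Myc, 10.71 in ΔS6 and 10.58 in WT liver.

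**Figure D3:**
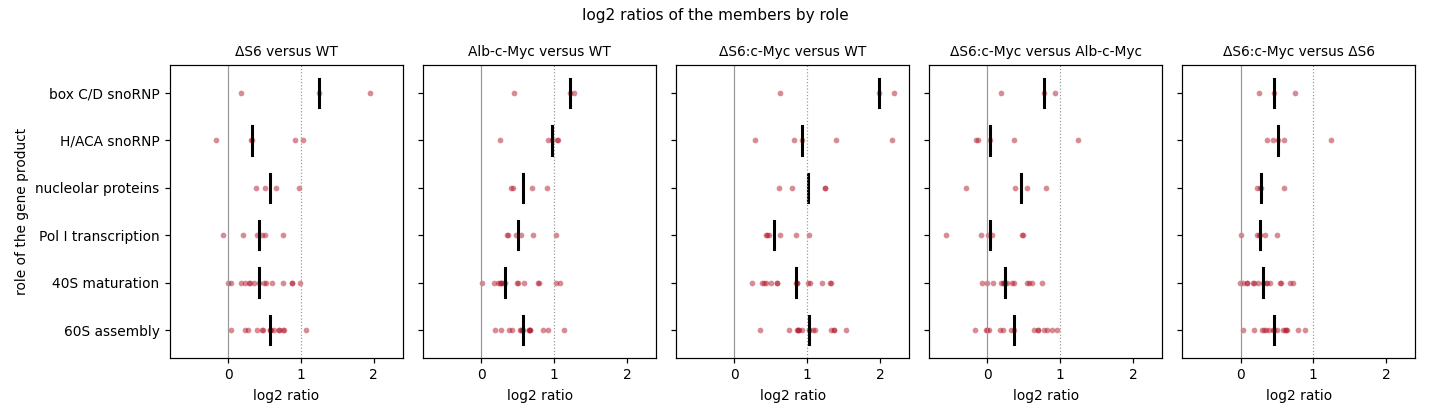
log2 ratio (horizontal axis) of each of the 48 genes (points) and median (black bar) by role of the gene product in the 5 comparisons; the dotted line marks 2-fold. The median of the box C/D proteins lies furthest right in the ratios to WT, though Fbl among them is low, and in ΔS6:c-Myc versus Alb-c-Myc the medians of RNA polymerase I transcription and H/ACA proteins are both 0.03.

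The deletion with and without the transgene was compared by 2 ratios that share no array, ΔS6:c-Myc versus Alb-c-Myc and ΔS6 versus WT. They do not hold the same extent of deletion, since the paper reports more recombination in ΔS6:c-Myc than in ΔS6 livers. The 9 probe sets that Rps6 shares with its pseudogene had medians of −1.76 and −0.29 in these 2 ratios. The part of this difference in the values below was not tested. Of the 48 genes, 37 (77.1%) were above 0 in both, where 31.6% of all genes were, and 9 (18.8%) were at least 1.5-fold higher in both, where 4.38% were. Across the 48 genes Pearson's r was 0.50 and Spearman's rho 0.50, and across all genes 0.61 and 0.59; genes are not independent replicates, and no p is given. The effect of the transgene was compared in the same way, by ΔS6:c-Myc versus ΔS6 and Alb-c-Myc versus WT. In the former ratio the same Rps6 probe sets had a median of −1.31. Here 47 of 48 genes (97.9%) were above 0 in both, against 31.4% of all genes, and 7 (14.6%) were 1.5-fold higher in both, against 0.297%. The order of the genes was little shared, with r at 0.10 and rho at 0.07 across the 48 genes and 0.08 and 0.13 across all. The ribosome biogenesis genes were thus higher with the transgene on both backgrounds. With 1 array per genotype, a different order of genes cannot be told apart from measurement error.

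**Figure D4:**
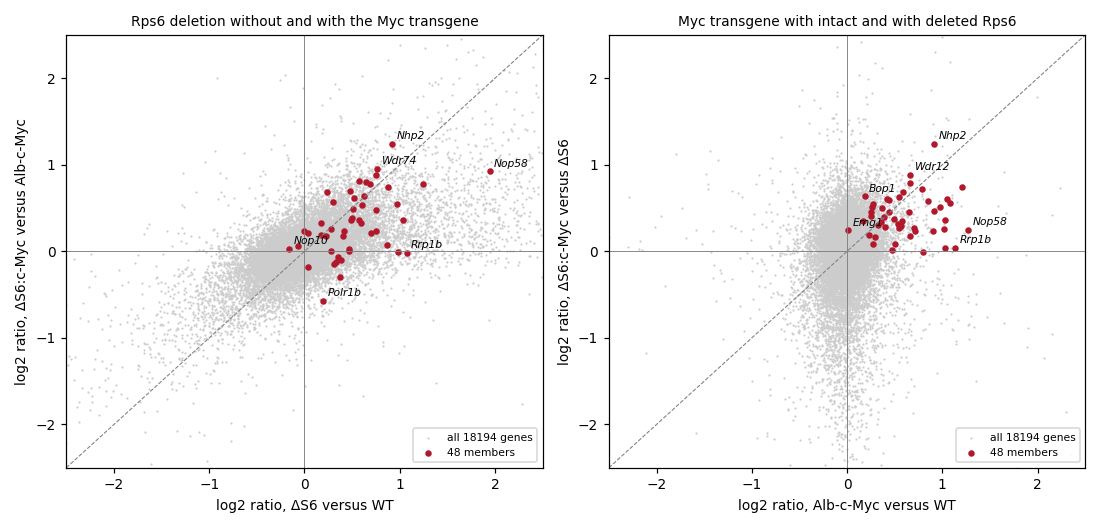
log2 ratios of the 48 genes (red) and all 18194 genes (grey; points past 2.5 in either direction are outside the axes). Left, ΔS6:c-Myc versus Alb-c-Myc (vertical) against ΔS6 versus WT (horizontal); right, ΔS6:c-Myc versus ΔS6 (vertical) against Alb-c-Myc versus WT (horizontal); the dashed line marks equal ratios. In the right panel 47 of the 48 red points lie above and to the right of 0, while in the left panel Polr1b lies lowest at −0.57.

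The combined alteration gave less than the sum of the single ones on the log2 scale in most of these genes. The median of the summed single ratios was 1.14, against 0.87 measured in ΔS6:c-Myc versus WT. The double difference, ΔS6:c-Myc minus Alb-c-Myc minus the difference of ΔS6 and WT, had a median of −0.16 in the 48 genes and 0.03 in all genes. It was below 0 in 31 and above 0 in 17 of the 48, and beyond the probe-set spread of 0.22 in 22 on the lower and 6 on the higher side; all genes had 4331 and 4802. No gene of the 48 was 2-fold above additivity, where 1.14% of all genes were, and 2 were 2-fold below it, where 4.61% were. These were Rrp1b at −1.09 and Nop58 at −1.02, and Tsr1 at −0.99 was just inside. All 4 arrays enter this quantity, the WT array included, and it sets unlike extents of Rps6 deletion against each other. The median of all probe sets of an array lay between 6.85 and 6.88.

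The 3 profiles below were defined after the values had been seen. In 9 of the 48 genes (18.8%, against 1.15% of all genes) ΔS6:c-Myc was at least 1.5-fold above both Alb-c-Myc and ΔS6: Nhp2, Nop56, Ncl, Bysl, Bop1, Wdr12, Wdr74, Noc2l and Ebna1bp2. Another probe set met this definition in Nhp2 and Ncl, none did in 6 of the 9 genes, and Wdr74 has 1 probe set. In 4 genes (8.33%, against 0.231%) ΔS6:c-Myc was 1.5-fold above WT and within the probe-set spread of both single alterations: Tsr1, Wdr75, Rrs1 and Rrp1b. Another probe set did so for Tsr1 and Rrs1. In 7 genes (14.6%, against 0.693%) Alb-c-Myc was 1.5-fold above WT and ΔS6:c-Myc below Alb-c-Myc: Dkc1, Nolc1, Gnl3, Polr1a, Polr1b, Rrp1b and Tsr1. Of these 7, Gnl3 at −0.29 and Polr1b at −0.57 lay below Alb-c-Myc by more than the probe-set spread of 0.24. The other 5 were within it on the probe sets used. Another probe set met this definition in Dkc1, Nolc1 and Tsr1, and none did in Polr1a and Rrp1b. Gnl3 and Polr1b have 1 probe set each. Further probe sets of Nolc1 and Dkc1 lay below Alb-c-Myc by more than the spread, at −0.65 and −0.31. Over all 48 genes the highest array was ΔS6:c-Myc in 38 (79.2%, against 22.8% of all genes), Alb-c-Myc in 9 and ΔS6 in 1, and the lowest was WT in 46 (95.8%, against 22.5%) and ΔS6 in Nop10 and Rrn3. Alb-c-Myc exceeded ΔS6 in 28 of 48 genes (58.3%), a share near that of all genes (57.3%).

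**Figure D5:**
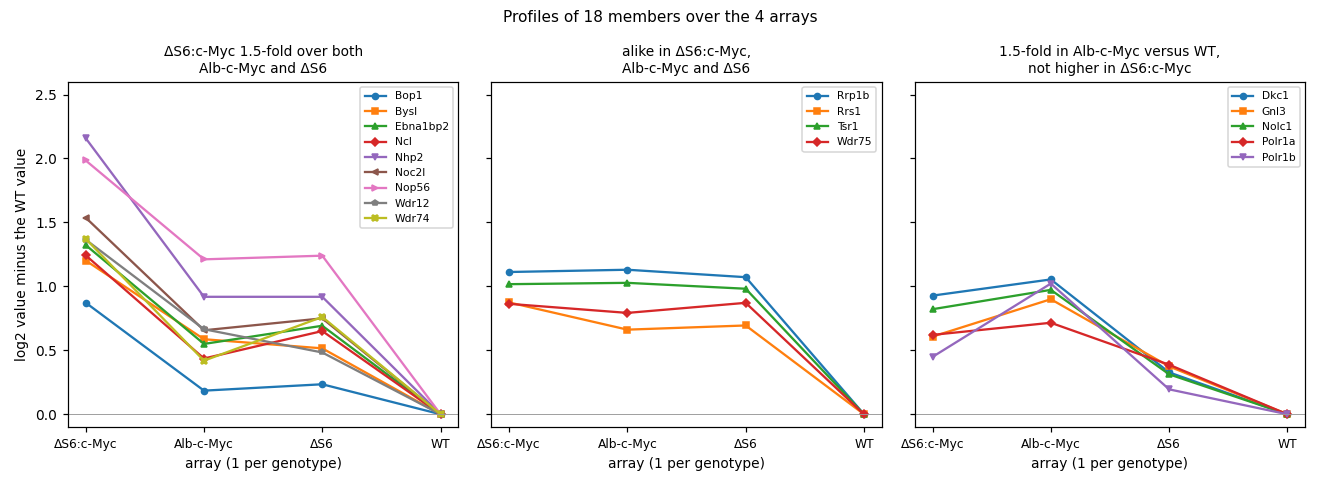
log2 value minus the WT value (vertical axis) on the 4 arrays (horizontal axis) for 18 genes in the 3 profiles; Rrp1b and Tsr1, which meet 2 of the definitions, are drawn in the middle panel only. Lines join the points of 1 gene: 9 genes are highest in ΔS6:c-Myc (left), 4 lie level in the 3 altered livers (middle), and of the 5 on the right Gnl3 and Polr1b lie lower in ΔS6:c-Myc than with the transgene alone by more than the probe-set spread.

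All probe sets of the genes were counted as well, including those that gave the values above, so the counts in part repeat them. The 48 genes have 98 probe sets, and 32 genes have several. Among the 53 probe sets of those 32 genes that average at least 8 on the log2 scale, all 53 were above 0 in ΔS6:c-Myc versus WT and in Alb-c-Myc versus WT, and 49 in ΔS6 versus WT. In ΔS6:c-Myc versus Alb-c-Myc 39 of 53 were above 0, and in ΔS6:c-Myc versus ΔS6 52 of 53. Dim ones included, 93 of all 98 probe sets lay above 0 for ΔS6:c-Myc against WT, 92 for Alb-c-Myc and 82 for ΔS6. Set against Alb-c-Myc, the ΔS6:c-Myc array had 69 of 98 above 0, and set against ΔS6 it had 94. Within the 32 genes, every probe set had the same sign in 28 for ΔS6:c-Myc against WT, 26 for Alb-c-Myc and 21 for ΔS6. For ΔS6:c-Myc this held in 21 genes against Alb-c-Myc and in 28 against ΔS6.

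The rest of the pathway was described with 6 further lists, of which 124 of 127 genes were measured. At least 2-fold higher were 12 of 124 in ΔS6:c-Myc versus WT, 0 in Alb-c-Myc versus WT and 3 in ΔS6 versus WT, with medians of 0.56, 0.24 and 0.27, and none was 2-fold lower. The shares were 9.68%, 0.00% and 2.42%, where all genes had 3.00%, 0.418% and 7.24%, so that in the last 2 comparisons they did not exceed the background. At 1.5-fold 59 (47.6%), 11 (8.87%) and 24 (19.4%) were higher, where 8.97%, 1.59% and 13.8% of all genes were. Without the WT array, 4 of 124 (3.23%) were 2-fold higher in ΔS6:c-Myc versus Alb-c-Myc (median 0.30), against 1.99% of all genes. In ΔS6:c-Myc versus ΔS6 it was 1 (0.806%; median 0.26), near the 0.769% of all genes. Among 60S factors, Nle1, a Notchless homolog that works on pre-60S particles, had the highest ratio in Alb-c-Myc versus WT, at 0.98, with 9.14 in Alb-c-Myc and 8.16 in WT liver. Efl1, the GTPase that releases Eif6, had the lowest of that list in Alb-c-Myc versus WT, at −0.11. Utp4, the processome protein altered in North American Indian childhood cirrhosis, was the highest of the 38 other 40S factors in Alb-c-Myc versus WT (0.64), at 11.24 in ΔS6:c-Myc, 10.72 in Alb-c-Myc, 10.71 in ΔS6 and 10.08 in WT liver, and Riok3 was the lowest in that comparison at −0.08. Naf1, an assembly factor of H/ACA particles, read 9.50 in ΔS6:c-Myc, 9.42 in Alb-c-Myc, 9.64 in ΔS6 and 8.69 in WT liver, and Pih1d1 was the lowest of its list in Alb-c-Myc versus WT, at −0.14.

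Polymerase genes outside the 48 differed less. The 10 other RNA polymerase I subunits and factors had medians of 0.31 in ΔS6:c-Myc versus WT, 0.21 in Alb-c-Myc versus WT and 0.27 in ΔS6 versus WT, with none at 2-fold. In Alb-c-Myc versus WT they ran from Taf1d at 0.43 to Znrd1 at −0.10. The 16 measured RNA polymerase III and 5S genes had medians of 0.26 in ΔS6:c-Myc versus WT, 0.03 in Alb-c-Myc versus WT and 0.04 in ΔS6 versus WT, from Polr3d at 0.52 to Gtf3c1 at −0.11 in Alb-c-Myc versus WT. For RNA exosome genes, which trim and degrade processing products, the medians were 0.64 in ΔS6:c-Myc versus WT, 0.13 in Alb-c-Myc versus WT and 0.30 in ΔS6 versus WT, and Alb-c-Myc versus WT ran from Dis3 at 0.58 to C1d at −0.14.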

How the data were processed

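Total RNA of 3 livers per genotype was combined in equal amounts and hybridised to 1 Affymetrix mouse array per genotype, 4 arrays in all. The authors summarized the probes by RMA with quantile normalization and deposited log2 values for 45101 probe sets. RMA and affy are named in the notes that the submitters gave on processing, with versions not given in the sources used here. Probe intensities and detection calls were not used here, so dim ratios are uncertain and RMA compresses them. All per-sample columns were used.

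Gene symbols came from the platform annotation, in which 34958 probe sets have 1 symbol, 932 several and 9211 none, and 64 are controls. Only those with 1 symbol stand for a gene. Log2 ratios between 2 arrays were computed for 5 comparisons and a double difference, and members past 2-fold and 1.5-fold were counted beside the same share over all 18194 genes. The probe-set spread came from 8477 probe sets of 3379 genes with a mean of at least 8. No test was run, since n is 1 per genotype. The genes, the lists of other pathway genes and markers and the comparisons were chosen with earlier results of these data known. Values on all arrays are printed for the 5 highest and 5 lowest genes in Alb-c-Myc versus WT, 4 and 4 in each of ΔS6 versus WT, ΔS6:c-Myc versus Alb-c-Myc and ΔS6:c-Myc versus ΔS6, 3 and 3 by the double difference and the extremes of each of 6 roles, 28 genes in all; others were added after their values were seen. Promoter sequence is from RefSeq (GRCm38.p6). The array names no genome build, and no array coordinates are given. Alternatives were median centring, renewed quantile normalization, other probe set choices, a filter on dim genes and other fold thresholds. The counting steps were checked on simulated data. Python 3.11.15, numpy 2.4.6, pandas 2.3.3 and matplotlib 3.10.9 were used.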

Additional observations from a re-analysis of the deposited data

How the results depend on the processing

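No paired analysis was possible because each genotype has 1 array, and no array could be left out for the same reason. The medians kept their sign under median centring, renewed quantile normalization, 3 other probe set choices and a filter on genes under a log2 value of 7, and ranged over 0.72 to 0.88 in ΔS6:c-Myc versus WT, 0.49 to 0.57 in Alb-c-Myc versus WT, 0.37 to 0.49 in ΔS6 versus WT, 0.23 to 0.33 in ΔS6:c-Myc versus Alb-c-Myc, 0.34 to 0.43 in ΔS6:c-Myc versus ΔS6 and −0.16 to −0.11 for the double difference. The number of genes 2-fold higher depended on the threshold: at 1.5-fold it was 37 in ΔS6:c-Myc versus WT, 22 in Alb-c-Myc versus WT, 19 in ΔS6 versus WT, 13 in ΔS6:c-Myc versus Alb-c-Myc and 11 for ΔS6:c-Myc versus ΔS6, and at 3-fold it was 3, 0, 1, 0 and 0. With the mean over all probe sets of a gene, 11 in place of 20 genes were 2-fold higher in ΔS6:c-Myc versus WT, since other probe sets with smaller ratios enter that mean; these were dim for Wdr12 (0.52 in place of 1.37) and Ebna1bp2 (0.40 in place of 1.32), but bright ones entered for Noc2l, Rrp1b, Ddx21 and Bysl. With renewed quantile normalization 2 in place of 4 were 2-fold higher in ΔS6 versus WT, where Gar1 (0.92) and Rrp1b (0.92) fell just under the line. The double differences of Nop58 and Rrp1b were −0.98 and −0.99 there, so neither reached 2-fold, and that of Rrp1b was −0.38 with the mean over its probe sets. No count of genes 2-fold lower left 0 in the 5 comparisons of 2 arrays, and no sign of a called value turned. Of 288 single values, 59 moved by more than the probe-set spread with the mean over probe sets, 7 of 276 when probe sets named _x_at or _s_at were dropped, and 0 under the other 4 settings. Without replicate arrays, differences as small as the probe-set spread cannot be read.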
